A study of Danio rerio with 16 samples.

Results

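Of 798513 windows of 500 bp in the zebrafish genome, 2208 (0.277%) were highly methylated in early embryos, had lost part of that methylation by 24 hours post fertilisation (hpf), and stood close to the 24 hpf level at 36 hpf. They were selected on these methylation levels by a fixed rule. A window entered the test with at least 5 CpGs covered in both deposited tables and at least 30 calls in each of 8 groups. A call is one reading of one CpG as methylated or unmethylated, and the level is the percentage of calls read as methylated. Members had a level of 80% or more at 4 and 7 hpf, were at least 20 percentage points lower at 24 hpf than at 7 hpf, and lay within 10 points of the 24 hpf level at 36 hpf, with calls of both cell types and both replicates summed. The stage levels and the difference at 24 against 7 hpf are therefore given as a description. The rule set no condition on how the loss divided between germ cells and soma. The sum weights each cell type by its calls, however. At 24 hpf a member had on average 87.8 and 126.6 calls in the germ-cell libraries, against 150.7 and 166.0 in the soma libraries. The comparisons of germ cells with soma at 24 and 36 hpf are therefore not fully independent of the choice.

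The libraries came from primordial germ cells (PGCs) and from soma of the same age, at 4 and 7 hpf (blastula and gastrula) and at 24 and 36 hpf (both pharyngula, at the prim-5 and prim-25 stages). The 8 cell-stage groups held 2 libraries each, 16 in all. All embryos carried the kop-egfp-f-nanos3′UTR transgene, which puts farnesylated EGFP into PGCs (the study's line also carries cry:dsred), and the cells were separated by fluorescence. The soma group is thus a mixture of all cells outside the PGC gate, and its makeup changes with stage. Embryos older than 24 hpf were kept in phenylthiourea to stop pigmentation, so that this agent and the 36 hpf stage cannot be told apart. Eggs were raised at one of several temperatures, which the labels do not tie to libraries. The study's methods call the 4 hpf replicates technical and the later ones biological. The tables of calls hold no gene expression, so the cell labels were not checked against marker genes.

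Methylation of cytosine in CpG dinucleotides is set by DNA methyltransferases and is kept through cell division by the maintenance enzyme Dnmt1. It can be lost when maintenance fails, or through oxidation by TET enzymes, which in vertebrate embryos act on enhancers around the pharyngula stage. Most of the zebrafish genome is methylated in the blastula. PGCs are the founders of the germline and are set aside early, through maternally supplied germ plasm. Bisulphite sequencing reads 5-methylcytosine and 5-hydroxymethylcytosine alike. A level between 0 and 100% in a pool of cells can come from some cells without methylation or from partial methylation in all cells, and these cannot be told apart here. No annotation of the genome build of the tables (danRer10) was used here, so the windows are given by position and not by gene.

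Depth differed between the libraries. The libraries held between 25742797 and 250228430 calls in all, or 2.40 to 21.6 calls per shared CpG. A member window had on average 24.2 calls in the shallowest library (soma, 4 hpf, replicate 1) and 240.2 calls in the deepest (PGC, 36 hpf, replicate 1). Over all shared CpGs the 16 libraries lay between 81.7 and 85.4% methylated.

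In order of stage (4, 7, 24, 36 hpf) the mean level of the members was 95.8, 94.7, 64.1 and 58.5%. Over all 798513 tested windows it was 89.1, 89.0, 86.6 and 85.2% at the same stages. The members thus changed by -30.6 points between 7 and 24 hpf on average, with a median of -27.0 and a largest change of -76.5 points. The loss was partial in nearly every window. Only 2 members were under 20% at 24 hpf, 274 were under 50%, and the middle of the distribution lay at 67.2%. A loss of 40 points or more was found in 383 members and one of 60 points or more in 41, while 870 members lay within 5 points of the 20-point limit.

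Members were a minority of the windows that changed early. Of the 726463 windows at 80% or more at 4 and 7 hpf, 7824 were at least 20 points lower at 24 hpf. Of these, 5591 were lower by more than another 10 points at 36 hpf, 25 were higher by more than 10 points, and the 2208 members (28.2%) lay between. The members were not spread evenly around no change. At 36 hpf 2016 of them were below their 24 hpf level and 192 above it, with a mean change of -5.61 points, and 1453 were lower by 5 to 10 points. There was no gap in the distribution at the limit, since 364 members lay within 1 point of it and 392 windows lay up to 1 point outside it on the lower side.

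The windows next to each limit were as follows. The member closest to the limit at 4 hpf was chr4:21279501-21280000 (80.4%), and the closest window outside was chr14:47031501-47032000 (79.4%). At 7 hpf they were chr5:24847001-24847500 (80.4%) and chr7:15761001-15761500 (78.9%). For the loss by 24 hpf, chr13:13026501-13027000 lay inside at 20 points and chr12:39857501-39858000 outside at 19.9996 points. For the change to 36 hpf, chr5:62928001-62928500 lay inside at -9.997 points and chr22:37343501-37344000 outside at -10.001 points. At the upper limit they were chr1:58146501-58147000 at 9.53 points and chr13:32762001-32762500 at 10.5 points.

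**Figure D1:**
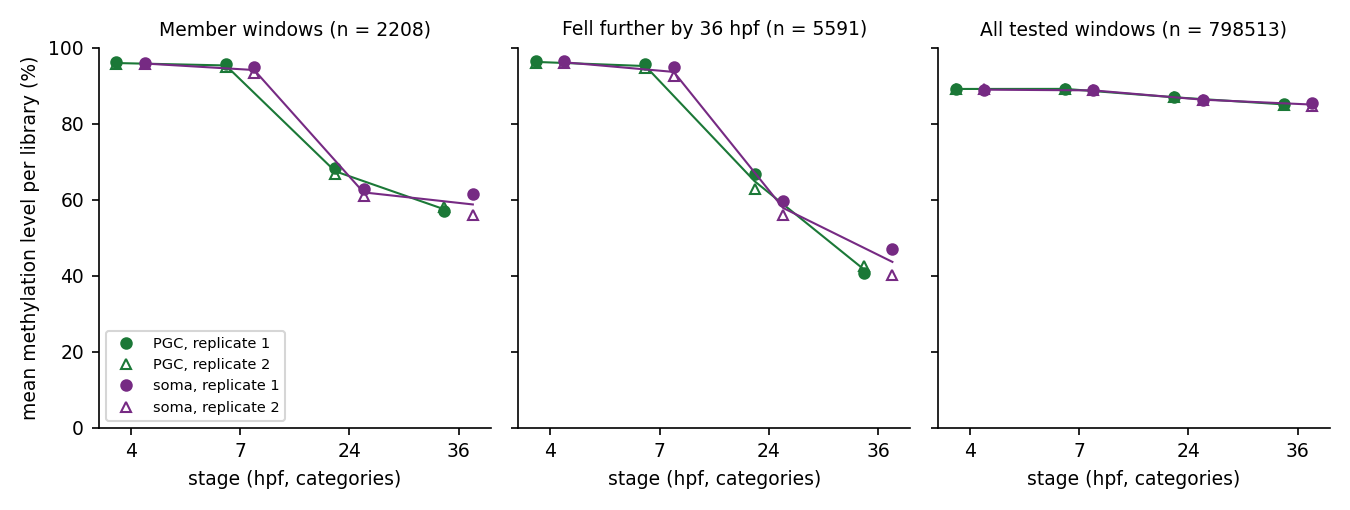
Mean methylation level (%) over windows in each of the 16 libraries, for the members, for windows that lost more than another 10 points by 36 hpf, and for all tested windows. Points are libraries (filled circles for replicate 1 and open triangles for replicate 2), and lines join the means of 2 libraries. The 2 PGC libraries at 24 hpf (68.3 and 66.7%) lie above the 2 soma libraries (63.0 and 60.9%) in the members.

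The loss by 24 hpf was present in germ cells and in soma, and the members were less depleted in PGCs at that stage. Over the members, the level at 24 hpf was 68.3 and 66.7% in the 2 PGC libraries, against 63.0 and 60.9% in the 2 soma libraries. The groups did not overlap, and the difference of the replicate means was 5.56 points, 5.37 in replicate 1 and 5.75 in replicate 2. At 7 hpf the PGC libraries stood at 95.7 and 95.03% and the soma libraries at 94.9 and 93.4%. At 4 hpf the PGC libraries stood at 96.3 and 95.7% and the soma libraries at 95.99 and 95.7%. The change from 7 to 24 hpf was -27.8 ± 0.701 points in PGCs and -32.2 ± 0.346 points in soma (SD over same-numbered replicates, n = 2). The same PGC excess at 24 hpf was 0.630 points over all tested windows, and 7.02 points over the 5591 windows that went on to lose more by 36 hpf. A PGC excess at 24 hpf was thus also measured in windows outside the member set.

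By 36 hpf the order of the cell types was no longer clear. The PGC libraries stood at 56.9 and 58.0%, and the soma libraries at 61.5 and 56.0%. The 2 PGC values lay between the 2 soma values. The PGC level less the soma level came to -4.59 points for replicate 1, with 2.01 for replicate 2. Leaving out the first soma library at 36 hpf gave a mean PGC minus soma of 1.34 points, against -2.25 points with all 4 libraries and replicate calls summed.

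The 24 hpf level was not held in both cell types alike. Between 24 and 36 hpf the mean member level changed by -10.03 ± 1.92 points in PGCs and by -3.18 ± 2.47 points in soma (SD, n = 2). In replicate 1 the changes were -11.4 points in PGCs and -1.43 points in soma. In replicate 2 they were -8.67 points in PGCs and -4.93 points in soma. Over the windows that lost more by 36 hpf, the mean changes were -23.2 points in PGCs and -14.2 points in soma. With replicates summed, 36 hpf lay within 10 points of 24 hpf in 1039 members (47.1%) in PGCs and in 1959 members (88.7%) in soma. In 1150 members (52.1%) PGCs were lower by more than 10 points at 36 hpf, and in soma 183 members (8.29%) were. The whole rule was met in PGCs alone by 870 members, in soma alone by 1826, and in both cell types separately by 611 (27.7%). The rule acted on the sum, so these counts describe how the sum was made up.

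Window by window, no difference between PGCs and soma passed the test after adjustment. The test was a weighted quasi-binomial fit of all 16 libraries with the spread shrunk as in limma, and p-values were adjusted over all 798513 windows by the Benjamini-Hochberg method. At 24 hpf, 0 of 2208 members were called at adjusted p under 0.05, as were 0 of all windows (0%). The smallest adjusted p of a member was 0.165. limma on levels with equal weights and edgeR's quasi-likelihood test on the calls also called 0 members at 24 hpf, and Fisher's exact test on summed replicates, which counts reads only, called 207, against 6190 of all windows. At 4 hpf 0 members were called, against 1 of all windows (0.000125%), and at 7 hpf 0 members, against 2 of all windows (0.00025%). At 36 hpf 0 members were called, against 3 of all windows (0.000376%). limma and edgeR called 0 members at these stages too, and Fisher's exact test called 3, 36 and 203 members, against 2277, 2839 and 11330 of all windows at these stages. The median standard error of a member's PGC minus soma at 24 hpf was 5.65 points.

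At an unadjusted p under 0.05 the members were past the threshold more often than the tested windows at large at 24 and 36 hpf in this fit, while the order at the early stages depended on the tool. PGCs were higher at 24 hpf in 454 members (20.6%), against 5.36% of all windows. They were lower in 25 members (1.13%), against 1.41% of all windows. Nearly all members past the threshold at 24 hpf were thus higher in PGCs. At 7 hpf PGCs were higher in 129 members (5.84%), against 2.23% of all windows, and lower in 20 members (0.906%), against 1.21%. At 4 hpf they were higher in 21 members (0.951%), against 1.55%, and lower in 15 members (0.679%), against 0.924%. In this fit, members with PGCs higher were thus more frequent than among all windows at 7 hpf and less frequent at 4 hpf. At 36 hpf the direction was the other way, with PGCs lower in 290 members (13.1%), against 3.47% of all windows, and higher in 95 members (4.30%), against 3.52%.

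These shares depended on the tool and on single libraries. In either direction, limma with equal weights had 0.634% of members at 7 hpf, against 2.17% of all windows. edgeR had 8.70% there, against 3.85%, and 5.75% at 4 hpf, against 4.58%. The quasi-binomial fit of the 4 libraries of a stage alone had 8.15% of members at 4 hpf, against 7.34% of all windows. At 24 hpf that fit had 17.9%, against 4.48%. edgeR's test, which works on the log ratio of methylated to unmethylated calls, had 167 members (7.56%) at unadjusted p under 0.05 at 24 hpf, against 4.11% of all windows. At 36 hpf it had 46 members (2.08%), against 2.47% of all windows. The share at 36 hpf was therefore above that of all windows with the quasi-binomial fit and not with edgeR. With each library left out in turn, the share of members past the threshold in either direction ranged, in order of stage, over 0.770 to 2.13%, 4.03 to 8.33%, 15.8 to 24.3% and 14.9 to 28.0%. With all libraries it was 1.63, 6.75, 21.7 and 17.4%. The lowest shares at 4 and 7 hpf and the highest at 36 hpf were reached without soma replicate 2 of that stage. The median standard error at 24 hpf was also larger in members (5.65 points) than over all windows (2.67 points), and similar in the windows that lost more by 36 hpf (5.70 points), 25.3% of which had PGCs higher at unadjusted p under 0.05.

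Counting libraries without a model gave the same order. Both PGC libraries lay above both soma libraries at 24 hpf in 780 members (35.3%), against 21.7% of all windows. They lay below both in 96 members (4.35%), against 11% of all windows. Among the windows that lost more by 36 hpf they lay above both in 40.6% and below both in 3.97%. At 36 hpf both PGC libraries lay above both soma libraries in 234 members (10.6%), against 15.7% of all windows. They lay below both in 393 members (17.8%), against 15.1%. In the windows that lost more by 36 hpf these shares were 9.41 and 19.7%. The pattern was thus not particular to the members. With summed replicates PGCs were higher in 1689 members (76.5%) at 24 hpf, against 58.8% of all windows, and in 801 (36.3%) at 36 hpf, against 50.1%. A PGC excess of 10 points or more at 24 hpf was found in 587 members (26.6%), against 1.21% of all windows. A deficit of that size was found in 49 members (2.22%), against 0.807%. The median tested window stood at 93.7% at 24 hpf and the median member at 67.2%.

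**Figure D2:**
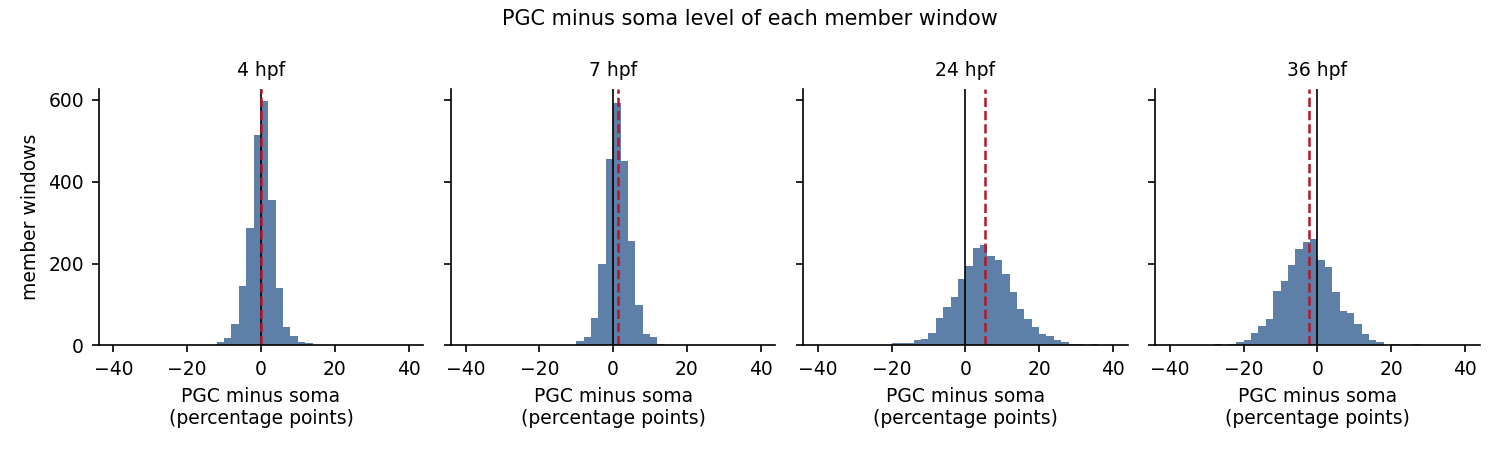
PGC minus soma level (percentage points, replicates summed) of each of the 2208 member windows at 4, 7, 24 and 36 hpf, in bins of 2 points. Values past 40 points are drawn in the outermost bins, the black line marks 0 and the dashed line the mean. From left to right the mean lies at 0.0748, 1.30, 5.43 and -2.25 points.

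The change over time was compared between the cell types in the same fit. For the change from 7 to 24 hpf, 0 members were called at adjusted p under 0.05, against 1 of all windows (0.000125%), and limma and edgeR called 0. The loss was smaller in PGCs in 301 members (13.6%) at unadjusted p under 0.05, against 3.24% of all windows. It was larger in PGCs in 28 members (1.27%), against 1.76%. In either direction the fit had 14.9% of members, against 4.995% of all windows. limma had 10.4%, against 3.41%, and edgeR had 5.30%, against 3.82%. For the change from 24 to 36 hpf, 0 members were called, against 0 of all windows (0%), and limma and edgeR again called 0. This comparison was added after seeing the data. The later change was more negative in PGCs in 484 members (21.9%) at unadjusted p under 0.05, against 4.74% of all windows, and less negative in 29 members (1.31%), against 2.1%. In either direction the fit had 23.2% of members, against 6.84% of all windows. limma had 20.3%, against 5.05%, and edgeR had 5.80%, against 3.57%. Among the windows that lost more by 36 hpf, the later change was more negative in PGCs in 29.96%. Without soma replicate 2 at 36 hpf, 8 members were called for the later change (200 of all windows) and 19 for PGCs against soma at 36 hpf (481 of all windows). Without PGC replicate 2 at 24 hpf, 3 members were called for PGCs against soma at 24 hpf (59 of all windows), and without either soma library at 7 hpf 1 member was (1 of all windows). Without soma replicate 2 at 7 hpf, 1 member was called for the change from 7 to 24 hpf (14 of all windows).

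The PGC excess of a single member in one replicate said little about its excess in the other. Across the 2208 members, PGC minus soma at 24 hpf in replicate 1 correlated with that in replicate 2 at r = 0.0180 (0.0373 over all tested windows), as a description over windows that share libraries and depth. PGC minus soma at 36 hpf correlated with that at 24 hpf at r = -0.0140. The summed level at 24 hpf holds the same PGC and soma calls as the excess at that stage, so they are not independent. The size of the mean excess varied with this level. It was 10.4 points in the 113 members under 40% at 24 hpf, 7.52 in the 484 members at 40 to 60%, 5.06 in the 765 members at 60 to 70%, and 3.90 in the 846 members at 70 to 80%. Over the same bins PGCs were higher in 88.5, 82.0, 75.7 and 72.5% of members.

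The loss by 24 hpf was seen again in libraries that took no part in choosing, and the stability to 36 hpf was seen less often. Applied to replicate 1 alone, the rule chose 631 of 158778 windows that had 30 calls in each group of that replicate. In replicate 2 the same windows stood at 95.7, 94.1, 66.9 and 54.7% in order of stage. The loss by 24 hpf was 27.3 points in replicate 2, against 31.7 points in replicate 1, which chose them. Over all 158778 windows it was 1.961 points in replicate 2. The loss in replicate 2 reached 20 points in 69.4% of the 631 chosen windows. The change from 24 to 36 hpf was -12.2 points in replicate 2, against -4.75 points in replicate 1, and 38.7% of the windows were within 10 points.

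The reverse choice gave the same picture. Replicate 2 alone chose 2727 of 701339 windows, which in replicate 1 stood at 96.1, 95.1, 69.8 and 57.1% in order of stage. The loss by 24 hpf was 25.3 points there, and the change to 36 hpf was -12.7 points, with 37.1% of windows within 10 points. In both directions the unused replicate thus lost more than the 10-point limit on average. The change to 36 hpf in the unused replicate was smaller than in the windows that the choosing replicate put into the further-losing class. For those windows it was -16.9 points read in replicate 2, with -17.03 read in replicate 1. Over all windows tested in the choosing replicate it was -1.53 and -1.34 points, read in the same replicates. The word stable in the working name thus holds for the summed levels that chose the members. In windows chosen in 1 replicate it did not hold for the mean of the unused replicate. These sets are not the members, for which all 16 libraries took part in choosing. Of the 631 windows chosen in replicate 1, 355 were members, and of the 2727 chosen in replicate 2, 1299 were.

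**Figure D3:**
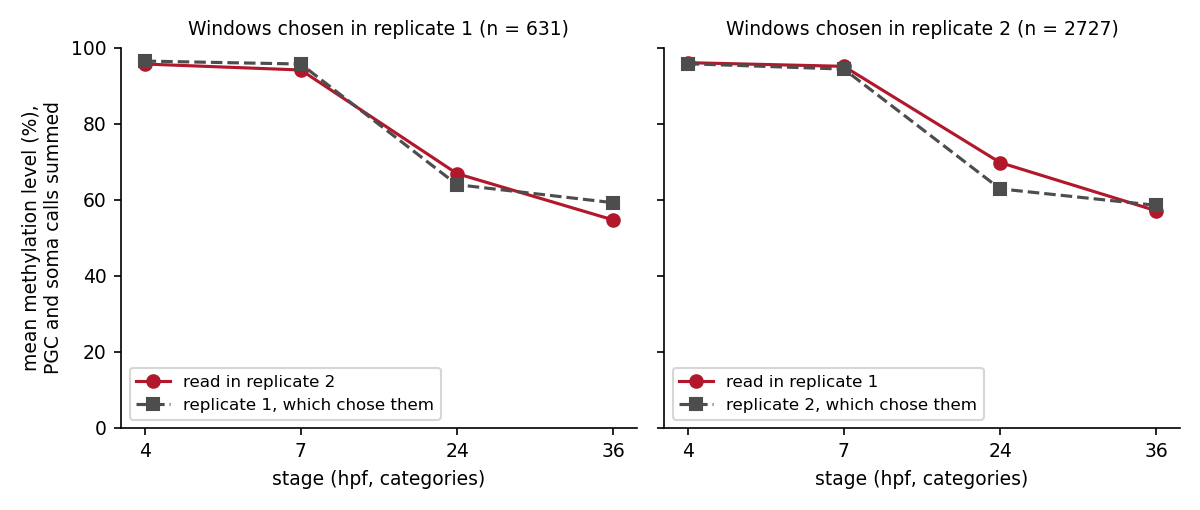
Mean methylation level (%, PGC and soma calls summed) at the 4 stages for windows chosen in 1 replicate by the full rule, shown in the other replicate (solid line, circles) and in the replicate that chose them (dashed line, squares). Left, 631 windows chosen in replicate 1; right, 2727 windows chosen in replicate 2. The solid lines reach 54.7 and 57.1% at 36 hpf, below the dashed lines at 59.2 and 58.5%.

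In the unused replicate the later loss was larger in PGCs. For windows chosen in replicate 1, the change from 24 to 36 hpf in replicate 2 was -14.4 points in PGCs and -10.6 points in soma. For windows chosen in replicate 2, it was -18.3 points in PGCs and -8.34 points in soma of replicate 1. These windows had a PGC excess at 24 hpf of 5.34 points when read in replicate 2, and of 5.39 when read in replicate 1. Windows put into the further-losing class had the same order of the later change. It was -19.5 points in PGCs and -15.2 in soma of replicate 2, and -24.5 in PGCs and -11.3 in soma of replicate 1. Choosing in 1 cell type gave a related view. The 1585 windows chosen on PGC calls alone were 23.5 points lower at 24 than at 7 hpf in soma, and 60.4% of them stayed within 10 points in soma. The 4536 windows chosen on soma calls alone were 25.9 points lower at 24 than at 7 hpf in PGCs, and 21.4% of them stayed within 10 points in PGCs.

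The members with the largest losses were taken from 725 members with at least 10 CpGs and 100 calls in each group. Among these 725 the largest was chr20:33438001-33438500 with 19 CpGs, at 94.0% at 7 hpf and 25.5% at 24 hpf, a loss of 68.5 points. At 24 hpf its PGC libraries stood at 36.0 and 23.8% and its soma libraries at 27.2 and 13.3%, so that the groups overlapped. At 36 hpf the PGC libraries stood at 21.2 and 14.2% and the soma libraries at 40.6 and 12.0%. The summed level at 36 hpf (25.6%) equalled that at 24 hpf within 0.0891 points, while its soma libraries were far apart. The second was chr9:25975001-25975500 with 12 CpGs and a loss of 65.8 points. Its PGC libraries stood at 33.1 and 39.8% and its soma libraries at 24.7 and 24.9% at 24 hpf, without overlap. At 36 hpf the PGC libraries stood at 13.6 and 12.9% and the soma libraries at 37.6 and 4.55%. Again the soma replicates at 36 hpf enclosed the PGC values. The next were chr24:21102001-21102500 (65.4 points), chr5:19188001-19188500 (65.0 points), chr13:5267001-5267500 (63.1 points) and chr7:35584001-35584500 (62.9 points). None of the 6 was at 0 at 24 hpf, and chr7:35584001-35584500 was the highest of them at 33.2%.

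Among the same 725 members, the highest PGC excess at 24 hpf was found at chr22:33218001-33218500, a window of 16 CpGs. Its PGC libraries stood at 68.1 and 65.5% and its soma libraries at 34.9 and 35.4%, a fitted difference of 31.6 ± 4.03 points (SE), with an adjusted p of 0.165 in the quasi-binomial fit. At 7 hpf the PGC libraries stood at 94.6 and 95.2% and the soma libraries at 97.4 and 88.8%. At 36 hpf the PGC libraries stood at 41.1 and 45.9% and the soma libraries at 42.9 and 38.0%. Here soma had reached its low level by 24 hpf and PGCs reached a similar one by 36 hpf. The 24 hpf groups stood far apart without passing the adjusted threshold. The window was picked for its difference at 24 hpf, so that difference is likely too large. A smaller one at 36 hpf can follow from the picking. The later change in PGCs minus that in soma was -30.8 ± 5.30 points in this window (SE, adjusted p = 0.194 in the same fit).

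The next window, chr11:40710501-40711000 with 19 CpGs, had 87.2 and 68.5% in PGCs and 53.2 and 43.0% in soma at 24 hpf. Its fitted difference was 30.2 ± 5.24 points (adjusted p = 0.254). At 36 hpf it had 57.9 and 46.6% in PGCs and 52.6 and 52.1% in soma, which overlapped. The other 4 of the 6 highest were chr19:46013001-46013500 (29.3 points), chr23:19013001-19013500 (28.2 points), chr24:21102001-21102500 (26.9 points) and chr17:22669501-22670000 (25.6 points), with adjusted p between 0.358 at chr17:22669501-22670000 and 0.461 at chr23:19013001-19013500.

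Among them, the largest PGC deficit at 24 hpf was at chr16:33604501-33605000 with 18 CpGs. Its PGC libraries stood at 55.7 and 63.8% and its soma libraries at 82.7 and 74.4%, a fitted difference of -19.8 ± 4.02 points (adjusted p = 0.372). At 36 hpf the PGC libraries stood at 67.4 and 75.4% and the soma libraries at 68.5 and 69.3%, so that the groups overlapped. In this window PGCs were low at 24 hpf and higher again at 36 hpf. Its later change in PGCs minus that in soma was 20.55 ± 5.31 points (SE, adjusted p = 0.47 in the quasi-binomial fit). The window was picked for its difference at 24 hpf, so a smaller difference at 36 hpf can follow from the picking. The second, chr5:62841001-62841500 with 11 CpGs, had 67.2 and 58.3% in PGCs and 80% in both soma libraries at 24 hpf, a difference of -17.8 points. The other 4 of the 6 lowest were chr10:1149501-1150000 (-16.2 points), chr17:44209501-44210000 (-15.7 points), chr15:8314001-8314500 (-14.1 points) and chr10:21239501-21240000 (-13.7 points). The deficits were smaller than the excesses, and none passed the adjusted threshold.

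Most members had no other member beside them. A neighbouring window could extend a run only if it met the CpG and call minimums. Over the 2208 members, 1945 neighbouring windows on either side did. The members formed 2093 runs, of which 1981 were single windows, 109 were pairs and 3 were runs of 3 adjoining windows. The run chr5:64418501-64420000 (27 CpGs) had 54.6 and 49.2% in PGCs and 45.5 and 42.0% in soma at 24 hpf, without overlap. At 36 hpf its PGC libraries stood at 45.7 and 41.9% and its soma libraries at 48.7 and 52.8%. The order of the cell types was thus turned round between these stages. The run chr15:29842001-29843500 (44 CpGs) had 79.0 and 59.96% in PGCs and 53.6 and 57.1% in soma at 24 hpf. At 36 hpf it had 58.5 and 54.4% in PGCs and 60.7 and 49.0% in soma. The run chr4:12804001-12805500 (43 CpGs) differed between replicates more than between cell types at 24 hpf, with 55.7% in PGCs and 60.1% in soma of replicate 1 at 24 hpf, and 84.8% in PGCs and 87.5% in soma of replicate 2. At 36 hpf it had 53.4 and 83.04% in PGCs and 76.3 and 83.9% in soma. The first of the 109 pairs in genome order, chr1:29043501-29044500 (14 CpGs), had 58.5 and 54.7% in PGCs and 55.3 and 54.4% in soma at 24 hpf. At 36 hpf it had 42.4 and 53.6% in PGCs and 54.7 and 47.6% in soma.

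Single CpGs of the members moved to the middle of the scale. The members held 20073 shared CpGs, of which 19779 had at least 10 calls at each stage. In order of stage, 97.2, 97.5, 25.2 and 18.8% of them were at 80% or more. Under 20% were 0.248, 0.212, 1.30 and 4.25% at these stages, so that 73.5% of CpGs lay between 20 and 80% at 24 hpf. Over all tested windows 6.65% of CpGs lay there at 24 hpf. By cell type, the CpGs with 10 calls at each stage in that cell type and under 20% made up 0.668% for PGCs and 2.62% for soma at 24 hpf. At 36 hpf they made up 6.31% for PGCs and 3.48% for soma. These shares are of 14364 CpGs for PGCs and 15828 for soma, which are not the same set. Over all tested windows the shares under 20% were 12.6% for PGCs and 11.3% for soma at 24 hpf, and at 36 hpf 12.7% for PGCs and 11.4% for soma.

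Neighbouring CpGs of a member did not all stand at the same level at 24 hpf. Of 19295 CpGs with 20 calls at 7 and 24 hpf, 68.0% were at least 20 points lower at 24 hpf, 9.89% were lower by under 5 points or not lower, and the median loss was 29.1 points. In 283 of 2099 members with at least 5 such CpGs (13.5%) every one of them was at least 20 points lower. Counting error and members close to the 20-point limit lower this share, so by itself it does not show unequal loss. The median standard deviation between the levels of a member's CpGs at 24 hpf was 14.99 points, against 6.23 points from counting error alone. It describes levels and not losses, and the counting error leaves out the spread between libraries. The median distance between the highest and the lowest CpG was 42.7 points, which was not compared with counting error.

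**Figure D4:**
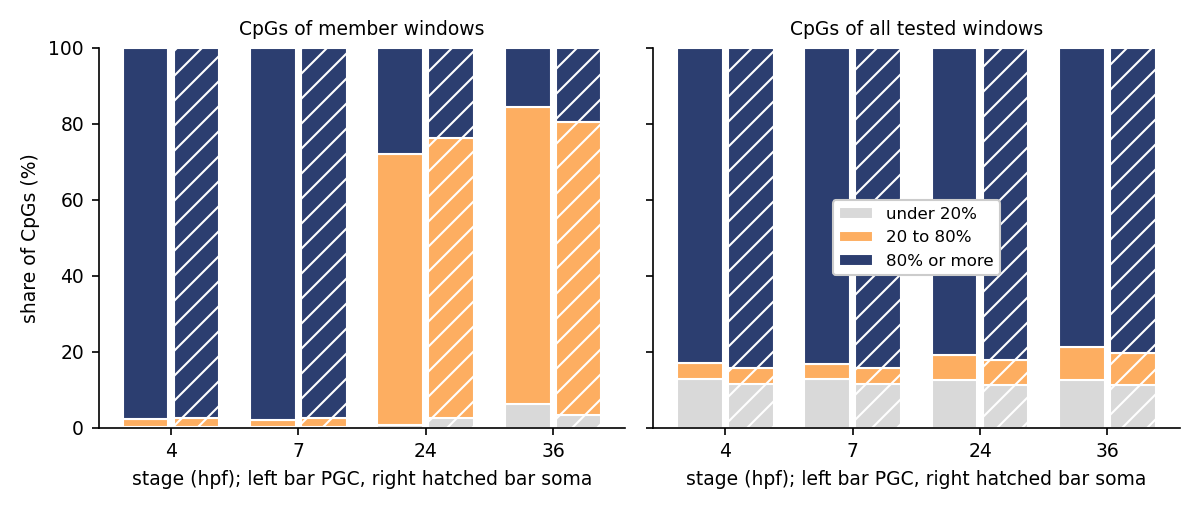
Share of CpGs (%) at under 20%, 20 to 80% and 80% or more methylation, by stage, for CpGs of the member windows and of all tested windows with at least 10 calls at each stage in the cell type shown. The left bar of each pair is PGC and the right hatched bar is soma. In the members the middle class takes 71.3% in PGCs and 73.6% in soma at 24 hpf.

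The loss was largest within the members, where the rule required it, and fell off over the first 2000 bp. The peak in the middle was thus set by the choice. With calls pooled over members, CpGs up to 250 bp from the middle were 30.6 points lower at 24 than at 7 hpf, those at 250 to 500 bp 17.1 points, at 500 to 1000 bp 7.49 points, and at 1000 to 2000 bp 3.93 points. CpGs of other members were left out of the flanks, which can lower the loss measured there. The loss did not shrink steadily beyond that. It was 4.71 points at 2000 to 3000 bp, 4.68 points at 3000 to 4000 bp and 4.01 points at 4000 to 5000 bp. Over all shared CpGs the level was 82.96% at 24 hpf and 84.8% at 7 hpf, a smaller change than at any of these distances. The PGC excess at 24 hpf also narrowed with distance. It was 5.22 points up to 250 bp and 3.003 points at 250 to 500 bp. At 500 to 1000 bp it was 1.30 points, and at 1000 to 2000 bp 0.658 points. Inside the members 24 hpf PGCs stood at 67.3% and soma at 62.1%, against 85.3% in PGCs and 84.7% in soma at 1000 to 2000 bp. The change from 24 to 36 hpf was larger just outside the members (-8.05 points at 250 to 500 bp) than inside (-5.84 points), where the rule had limited it.

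**Figure D5:**
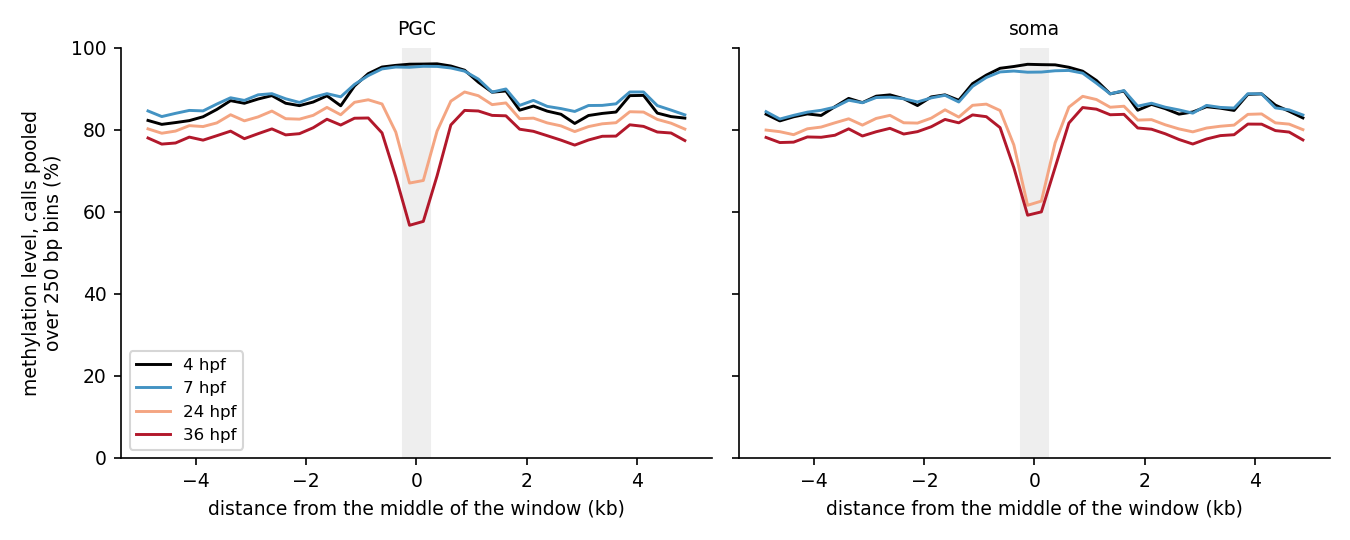
Methylation level (%) by distance from the middle of the member windows (kb), with calls pooled over members in bins of 250 bp, for PGCs on the left and soma on the right. Lines are the 4 stages, and the grey band is the window itself. At 24 hpf the 2 bins of the window together stand at 67.3% in PGCs and 62.1% in soma, and the flanks at 500 to 1000 bp stand at 87.4% in PGCs and 86.1% in soma.

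Windows next to members shared part of the loss. Of 1945 tested windows that adjoined a member, 11.8% were members and 19.0% lost more by 36 hpf, against 0.297 and 0.716% of the windows that adjoined any window at 80% or more at 4 and 7 hpf. The mean loss of the adjoining windows by 24 hpf was 15.4 points, against 2.59 points. In all, 576 members (26.1%) lay beside another window that lost methylation by 24 hpf. Over all windows at 80% or more at 4 and 7 hpf, 0.879% did.

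Members lay on all 25 chromosomes and seldom held many CpGs. There were 2.01 members per 1000 windows at 80% or more at 4 and 7 hpf on chromosome 4 and 2.04 on chromosome 3, the lowest, and 3.78 on chromosome 9 and 4.23 on chromosome 13, the highest. The median member held 8 CpGs, as did the median tested window. Windows with 20 CpGs or more made up 2.17% of members and 5.86% of tested windows. The median member had 217 calls per CpG over the 16 libraries, against 191 over all tested windows. The nearest window under 20% at 4 hpf lay at a median distance of 26000 bp from a member, against 25000 bp for windows at 80% or more at 4 and 7 hpf. Within 1000 bp of such an unmethylated window lay 27 members (1.22%), against 1.48% of those windows. Members thus lay no closer to the windows that were unmethylated from the start.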

How the data were processed

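Whole-genome bisulphite libraries were prepared from sorted PGCs and soma. The authors trimmed reads with fastp 0.12.5, used WALT for mapping against danRer10 plus lambda, took out duplicate reads by Picard 2.3.0, and counted calls with MethylDackel, merging strands and dropping variant sites and read ends. The deposited tables give, per CpG and library, counts of methylated calls and of all calls, with no normalization. One table holds the libraries numbered 1 and another those numbered 2, and 0 columns belonged to no sample. Positions were read as counted from 0 and are printed counted from 1.

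Calls of the 10260021 nuclear CpGs present in both tables were summed in windows of 500 bp. Of 839438 windows with at least 5 such CpGs, 798513 had at least 30 calls in each of the 8 groups. PGCs and soma were compared per window by weighted least squares on the 16 library levels, with quasi-binomial weights. For the variance 0.5 calls were added to each state, and 8 residual degrees of freedom were left. The spread was shrunk over all windows by limma's method, rewritten in Python, which gave the t test 19.3 degrees of freedom. P-values were adjusted over all 798513 windows (Benjamini-Hochberg), with a threshold of 0.05. Tests are two-sided. The fit was tested on simulated data. Fisher's exact test, limma with equal weights and edgeR 4.0.16 on the counts served as alternatives, with other windows, minimums and limits, a replicate block, and each library left out in turn. Python 3.11.15 with numpy 2.4.6, pandas 2.3.3 and scipy 1.17.1 was used.

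Windows named individually were, among members with at least 10 CpGs and 100 calls per group, the 6 with the largest loss, the 6 with the highest and the 6 with the lowest PGC minus soma at 24 hpf in the same direction in both pairs, and the 4 longest runs. The members, rule and comparisons were chosen with earlier results of these data known. With 2 libraries per group, p-values of the main fit rest on the spread between libraries of a group, pooled over all 8 groups. The technical replicates at 4 hpf are part of that spread at every stage. Errors from counting cover counting only.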

Additional observations from a re-analysis of the deposited data

Results flagged for a closer look

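Unmethylated lambda DNA was added to the samples, and the study judged from it how complete the bisulphite conversion was. Lambda DNA was used in no comparison above, and methylated calls on it exceeded the limit that a count of 0 allows. In the 8 libraries numbered 1, 0.328% of 1993619 lambda calls were read as methylated, with single libraries between 0.233 and 0.452%. In the 8 libraries numbered 2, 1.15% of 867 lambda calls were, with single libraries between 0 and 4.58%, from 50 to 221 calls per library. The 3-call limits are 0.000150 and 0.346% of these totals. Its part in the member levels was not tested.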

How the results depend on the processing

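The number of member windows followed the limits of the rule and the number of windows tested. It was 808 of 304233 tested windows with at least 10 shared CpGs. Over all windows it was 859 with a loss of 30 points or more, and 719 with 36 hpf within 5 points of 24 hpf. On soma calls alone it was 4536. Leaving out replicate 2 gave 631 of 158778 tested windows, and leaving out replicate 1 gave 2727 of 701339. Windows chosen at 250 bp, at 1000 bp and with a shift of 250 bp shared at least a CpG with 58.7, 61.7 and 53.6% of the members. The change from 24 to 36 hpf in the unused replicate averaged -12.4 points, against -12.0 with 15 calls and -11.3 with windows of 1000 bp.

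The mean PGC minus soma at 24 hpf over the members lay between 4.37 and 6.44 points with a library left out. At 36 hpf the range was -4.16 to 1.34 points, and for the change from 24 to 36 hpf -9.59 to -4.09 points. Members called ranged from 0 to 0 at 4 and 7 hpf, 0 to 3 at 24 hpf, 0 to 19 at 36 hpf, 0 to 1 for the change from 7 to 24 hpf and 0 to 8 for that from 24 to 36 hpf. Fisher's exact test, which takes no spread between replicates into account, called 3, 36, 207 and 203 members at 4, 7, 24 and 36 hpf. Of all 798513 windows it called 2277, 2839, 6190 and 11330 at these stages. In 164 further values, calls were kept, mean differences shifted by under 1 SD between replicates, or member counts stayed between 1585 and 2727. A count of 0 members called could only stay or rise, so it could not show a weaker result. PGC minus soma at 36 hpf still turned positive without soma replicate 1 and in replicate 2 (1.61 points, windows chosen in replicate 1).

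Same-numbered PGC and soma libraries deviated together at r = 0.0117, 0.247, 0.233 and 0.196 in order of stage over all windows. The labels tie the numbers to no shared embryos and the first value is near 0, so the block was kept as an alternative, and differences within a number in the report are descriptions. With the replicate block, 0 members were called in each comparison, against 4, 2, 0 and 8 of all windows at 4, 7, 24 and 36 hpf. For the changes from 7 to 24 and from 24 to 36 hpf, 1 and 4 of all windows were called. The plain mean of the same-numbered PGC minus soma differences was 5.56 points at 24 hpf and -1.29 points at 36 hpf. It was not taken from the block fit. The values at 36 hpf, the later change and its alternatives were added after seeing the data. The median standard error of a member's PGC minus soma was 3.26 points at 4 hpf, where calls were fewest, and 5.65 points at 24 hpf.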
